A study of Macaca fascicularis with 6 samples.

Results

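Plasma cells were rare in the monkey lung libraries. Of 25388 cells that passed quality control in 6 libraries, 104 met a rule built on transcripts. A cell was a member if it had more than 500 and fewer than 5000 genes, at most 25% of its UMIs in the 13 mitochondrial protein-coding genes, at least 1 UMI of TNFRSF17, UMIs of at least 3 of the 5 secretory genes JCHAIN, MZB1, FKBP11, TXNDC5 and SEC11C, and no UMI of CD3D, CD3E, C1QA or CSF3R. A UMI (unique molecular identifier) marks a captured RNA molecule, so that PCR copies are counted once. These genes chose the cells, and their levels are given below as a description only.

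Plasma cells are the end stage of the B lineage and secrete antibody. Their endoplasmic reticulum (ER) is enlarged to fold, glycosylate and export large amounts of immunoglobulin heavy and light chains, which the J chain (JCHAIN) joins into dimers or pentamers for transport across mucosal epithelia. On the way from the B cell they switch on PRDM1 and IRF4, switch off the PAX5 program and much of antigen presentation, and come to depend on the survival receptor BCMA, the product of TNFRSF17. In the airways they are known as a source of mucosal IgA and, in allergy, of IgE.

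The libraries came from lung tissue, which the study describes as large airways, of 6 male cynomolgus monkeys aged 3 to 5 years, 1 library per monkey. Control monkeys (replicates 1, 2 and 3) received saline and carried no allergen treatment, and monkeys of the asthma group (replicates 8, 10 and 11) were sensitised with A. suum antigen under the skin and then challenged with it through the nose. Tissue was dissociated and dead and red cells were removed before droplet capture, so that plasma cells lost at those steps were not seen. Quality control kept 4509, 3511 and 4066 control cells and 4305, 4719 and 4278 asthma cells, from 40556102, 33210436, 32240293, 41184329, 41489879 and 29014556 UMIs in all deposited barcodes. The members held 1331622 UMIs together, with a median of 10284 UMIs and 1812.5 genes per cell. Every library gave members. Their number was 26, 13 and 21 among controls, in the order of the replicate numbers, and 11, 14 and 19 in the asthma group.

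The label was compared with immunoglobulin output, measured as the secretory load, the share of a cell's UMIs in JCHAIN, in 17 genes with an immunoglobulin symbol (IGKC the only constant gene among them), and in 5 genes without a symbol that reached at least 1000 CPM (UMIs of a gene per 1000000 UMIs) in the members and at least 10 times their level in all other cells. JCHAIN also entered the rule, and the genes without a symbol were picked for their level in the members, so the load is a description and not independent of the choice of cells. The median member spent 36.2% of its UMIs on this load and the highest 80.6%. The distribution had a gap, with 68 members over 20%, 21 under 1% and only 5 between 2% and 10%. At 5% or more, 77 members carried a load, and 27 did not. Without JCHAIN, 68 of the 77 still reached 5%, and 9 did not (2 of control replicate 1, 5 of control replicate 3 and 2 of asthma replicate 10). In genes with an immunoglobulin symbol alone, 41 did. Markers outside the rule separated the 77 from the 27 only in part. SDC1 (the plasma cell surface proteoglycan CD138) was detected in 63.6% and 11.1%, and PRDM1 in 63.6% and 25.9%. IRF4 (58.4% and 55.6%), TNFRSF13B (55.8% and 51.9%) and POU2AF1 (28.6% and 22.2%) were close, and CD38 was detected in 16.9% and 37.0%.

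The members without a load carried signs of other cell states. Of the 27, 15 had UMIs of at least 4 of 13 cycling genes, 7 had MS4A1 (CD20, a B cell surface protein that plasma cells lose), 5 had LILRA4, IRF8 and GZMB together, a combination known from plasmacytoid dendritic cells, 2 had at least 4 epithelial markers, and 6 had none of these. The 5 members with LILRA4, IRF8 and GZMB came from control replicate 3, asthma replicate 8 and asthma replicate 10, held 47 to 141 GZMB UMIs each and had loads of 0.147% to 0.726%. A member of control replicate 1 had 3214 UMIs of SFTPC, the surfactant protein C gene of alveolar type 2 cells, and 7 of JCHAIN.

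Cells just inside and outside the threshold are given as a description, since the load shares JCHAIN with the rule. Among cells with TNFRSF17, those with all 5 secretory genes numbered 69 and had a median load of 49.5%, those with 4 numbered 16 at 16.3%, and those with 3, just inside, numbered 19 at 0.508%. The 21 cells with TNFRSF17 and only 2 secretory genes, just outside, had a median load of 0.215%. Another 13 cells had all 5 secretory genes but no TNFRSF17 UMI, at 29.6%. The 4 excluding genes removed 77 further cells, with a median of 13975 UMIs and a load of 31.1%.

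**Figure D1:**
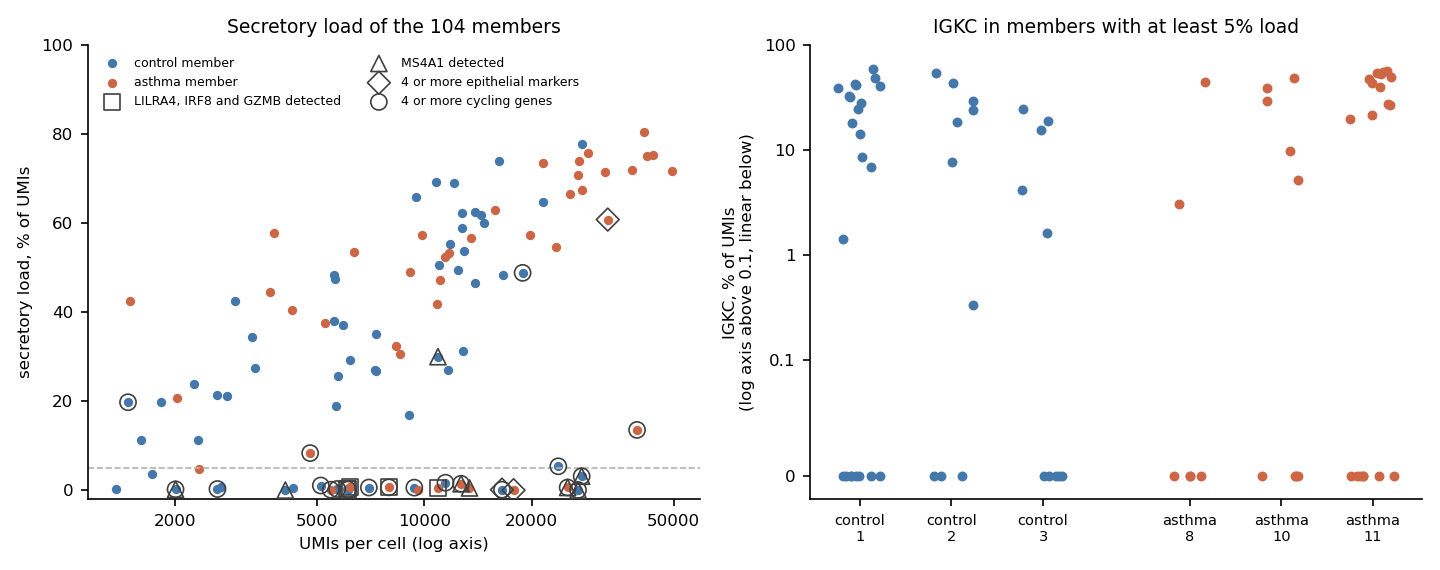
Left, UMIs per cell (log axis) against the secretory load in percent of UMIs for the 104 members, coloured by group, with outlines for cells holding markers of other states and a dashed line at 5%. Most members sit between 20% and 80%, and most outlined cells lie near 0. Right, IGKC in percent of UMIs for the 77 members above the line, by library (log axis above 0.1, linear below): each library holds cells with high IGKC and cells with none.

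Free RNA, which gives UMIs to cells that do not express a gene, was read from T cells. JCHAIN was detected in 1.06% to 4.04% of T cells per library but in 85.7% to 100% of members, and TNFRSF17 in 0.633% of the 5689 T cells and 6.69% of the 792 B cells. T cells were cells with CD3D and CD3E and without MS4A1, C1QA or CSF3R, and B cells were cells with MS4A1 and a further B cell gene that did not meet the plasma cell rule. Median depth was 3262 to 4854 UMIs in T cells and 3836 to 4549 in B cells, below that of the members in each library. IGKC, the kappa light chain constant gene, was detected in 6.33% of T cells, 64.3% of B cells and 62.5% of members.

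Light chain usage split the loaded members. In 45 of the 77, IGKC took at least 1% of UMIs (1.43% to 60.1%, median 29.3%), whereas in the other 32 it took at most 0.330%, and 31 of those had no IGKC UMI at all. Each B lineage cell normally expresses kappa or lambda light chain, and the files hold no lambda constant gene by symbol. The median load was 52.5% in the 45 and 47.8% in the 32. Cells with IGKC were found in every library, 15, 6 and 5 in the controls and 2, 5 and 12 in asthma. The 5 genes without a symbol were also high in some cells and low in others. At least 1 of them took 1% or more of UMIs in 54 loaded members, and more than 1 did so in 9. The most abundant in the members, ENSMFAG00000017427, stood at 69196 CPM against 439 in all other cells, and ENSMFAG00000026957 at 47300 against 317. No heavy chain constant gene carried a symbol, so the antibody classes of these cells were not analysed here.

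The libraries differed in how many members were loaded, and this bears on every result that follows. All 19 members of asthma replicate 11 carried a load, against 23 of 26, 10 of 13 and 10 of 21 in the controls, 6 of 11 in asthma replicate 8 and 9 of 14 in asthma replicate 10. The median load was 44.5%, 49.5% and 3.15% in the controls and 41.9%, 22.1% and 60.9% in asthma. Control replicate 3 thus stood apart at the low end. It also held 9 of the 20 members with cycling genes (5, 0 and 9 in the controls, 3, 3 and 0 in asthma) and the highest median mitochondrial share, 7.55% against 1.37% to 4.47% elsewhere. No barcode of a member recurred in another library, while 137 barcodes were shared over the 15 pairs of libraries.

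The genes that the rule used were abundant in the members of every library. JCHAIN reached 84175, 68677 and 30301 CPM in the controls and 55826, 78715 and 42688 CPM in asthma. MZB1, a chaperone of IgM and IgA assembly, lay between 1234 and 2221 CPM, TXNDC5, a disulfide isomerase, between 507 and 1520, SEC11C, the signal peptidase subunit, between 552 and 888, FKBP11, an ER proline isomerase, between 376 and 789, and TNFRSF17 between 397 and 775. In B cells of the same libraries TNFRSF17 averaged 16.5 CPM ± 3.72 (SD, n = 6 libraries) and MZB1 28.1 ± 11.8. All of these differences follow from the choice of cells.

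For the other genes, the members were set against B cells of the same library, the closest cell type in the tissue. The measure was the log2 difference of CPM with 10 CPM added, averaged over 6 libraries, which understates the difference of low genes, and it carries no test because the cells were chosen by their transcripts. The secretory load takes up UMIs that other genes cannot then have. The median over 7013 genes with at least 50 UMIs in both cell types together was -0.66, and -0.14 when CPM were taken over the UMIs outside the load. On the first scale 2.72% of those genes were higher in the members in all 6 libraries and 34.6% lower, and on the second 8.27% and 12.2%. Counts of genes are therefore given on the scale outside the load unless stated, and the genes of the lists that the rule used are left out.

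Most genes of the ER machinery were higher in plasma cells. Of 26 detected ER folding genes, 19 were higher in all 6 libraries, none was lower in all 6, and the median difference was 1.97 outside the load, or 1.21 with 15 genes higher by CPM over all UMIs. HSP90B1, the ER chaperone GRP94, stood at 2209, 1543 and 2129 CPM in the controls and 1123, 3084 and 1921 CPM in asthma, and averaged 318 CPM in B cells. PDIA4, a disulfide isomerase, had 796, 389 and 744 CPM in control members and 339, 343 and 500 in asthma members, against a B cell mean of 40.5. Every library of members thus lay above every library of B cells for both genes. PRDX4, the ER peroxiredoxin, averaged 299 CPM ± 140 (SD, n = 6) in members and 20.9 ± 2.95 in B cells. The difference was smaller for the general chaperones HSPA5 (614 against 274 CPM) and CALR (787 against 312) and for the proline isomerase PPIB (732 against 293), and ERO1A, an ER oxidase, was at 63.3 CPM in members and 109 in B cells, lower in all 6 libraries by CPM but in only 4 outside the load.

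Protein entry into the ER and export from it followed the same order. Of 26 detected genes of translocation and glycosylation 18 were higher in all 6 libraries and none lower (median 1.61), and of 24 genes of ER to Golgi transport 19 were higher and none lower (median 1.45). The translocon-associated subunits SSR4 and SSR3 averaged 1798 and 428 CPM in members and 318 and 67.8 CPM in B cells. SSR4 was detected in all 104 members. SPCS3, a signal peptidase subunit, averaged 693 CPM against 152, SPCS2 478 against 214, SEC61G 504 against 242, and SEC61A1, the translocation channel, 123 against 33.1. LMAN1, the cargo receptor ERGIC-53, averaged 236 CPM in members and 51.1 in B cells. Its partner MCFD2 had 28.2 CPM against 16.6. The cargo receptors TMED9 and TMED10 and the retrieval receptor KDELR1 averaged 233, 215 and 219 CPM against 84.3, 79.1 and 104, while the coatomer subunit COPE was at 255 against 261.

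In the list of the unfolded protein response and degradation, genes did not move as a block. Of 21 detected genes 14 were higher in all 6 libraries and 2 lower, with a median of 1.36. Genes of ER-associated degradation were among those higher, such as HERPUD1 (939 CPM against 402), SEL1L (206 against 33.4), EDEM1 (140 against 39.4) and UBE2J1 (212 against 119). ERN1, the sensor kinase IRE1, averaged 31.7 CPM against 8.10. The stress transcription factor DDIT3 (CHOP) was lower in all 6 libraries on both scales, at 112 CPM against 324. ATF4, upstream of it, averaged 338 against 330. PPP1R15A (GADD34), its target, averaged 108 CPM in members and 244 in B cells, lower in all 6 libraries by CPM and in 5 outside the load. The 27 members without a load enter these counts. Among the 77 loaded members alone, 19 of 26 ER folding genes, 21 of 26 of translocation and glycosylation, 19 of 24 of ER to Golgi transport and 12 of 21 of the unfolded protein response were higher in all 6 libraries, against 8.70% of all genes. None of the last list, DDIT3 included, was then lower in all 6. Without control replicate 3 the counts of genes higher in each of the 5 other libraries were 19, 20, 20 and 15, and without asthma replicate 11 they were 19, 19, 19 and 14, in the same order. XBP1 and DERL3 were not analysed here.

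**Figure D2:**
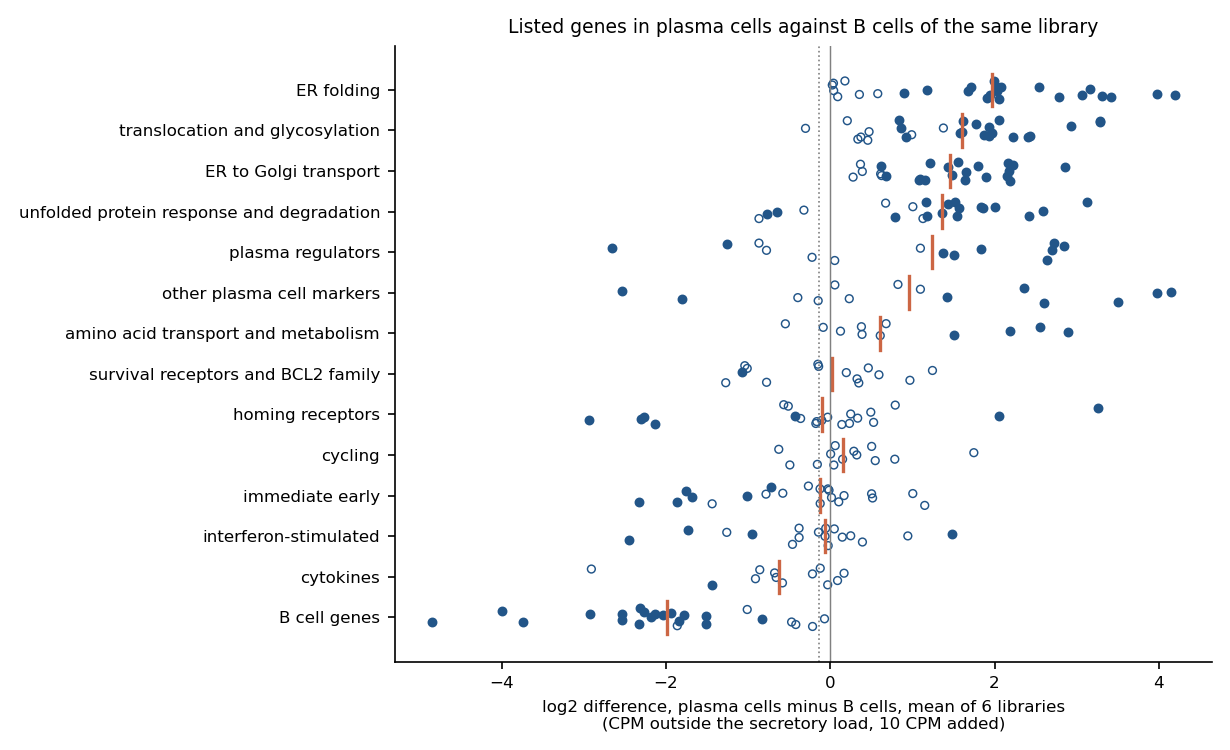
Log2 difference between plasma cells and B cells of the same library, mean of 6 libraries, in CPM outside the secretory load with 10 CPM added, for each gene of 14 lists without the genes of the rule. Filled points lay on the same side in all 6 libraries, open points did not, orange bars are list medians and the dotted line is the median of all genes. The 4 secretory lists have medians of 1.36 to 1.97 and the B cell genes -1.98.

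Among 14 regulators of the plasma cell program, 7 were higher in all 6 libraries and 2 lower (median 1.24). Most of the 14 were transcription factors and cofactors. The sensor kinase ERN1 is among the 7. PRDM1, the repressor BLIMP1, had 94.7, 114 and 175 CPM in the controls and 117, 196 and 62.4 CPM in asthma, against a B cell mean of 22.7. T cells had a like level of PRDM1 by CPM, 140. IRF4 averaged 112 CPM in members and 23.2 in B cells. ELL2, an elongation factor that favours the secreted form of the heavy chain, averaged 84.9 CPM against 14.1, CREB3L2 42.2 against 2.68, and POU2AF1, a B lineage coactivator, 26.6 against 11.4. EAF2, a partner of ELL2, was high in both, 305 CPM in members and 243 in B cells. POU2F2 (OCT2) was lower in all 6 libraries, 71.6 CPM against 620. MEF2C, another B cell factor, averaged 87.0 against 281, and AFF3 1.82 against 19.5. ZBP1 was higher in all 6 libraries on both scales (14.2 against 2.98), while ATF6, ATF6B and ZBTB20 lay between 5.51 and 23.6 CPM in members.

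Of 14 further plasma cell markers, 6 were higher in all 6 libraries and 2 lower (median 0.96). SDC1 had 108, 87.2 and 45.1 CPM in the controls and 31.8, 136 and 155 CPM in asthma, against a B cell mean of 4.68. ITM2C averaged 303 CPM against 24.2, SLAMF7, a surface receptor, 57.7 against 11.8, and HID1, a protein of secretory granules, 34.2 against 0.416. CD38 did not separate the cell types. It averaged 34.1 CPM ± 29.2 (SD, n = 6) in members and 45.0 in B cells, and was detected in 16.9% of loaded members and 37.0% of the others. CD27, often used to mark human plasma cells and memory B cells, was lower in all 6 libraries (13.4 CPM against 151), as was FCRL5, an Fc receptor-like protein (22.6 against 167).

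Ranked by the difference over all UMIs among genes with a symbol that were higher in all 6 libraries, JCHAIN (9.47), MZB1 (5.45), TXNDC5 (5.35), IGKC (5.32) and CD160 (5.14) led. CD160, a glycolipid-anchored receptor known from NK and cytotoxic T cells, had 110, 43 and 18 UMIs in control members and 118, 76 and 171 in asthma members, or 474, 288, 101, 625, 414 and 427 CPM. No UMI of CD160 was found in the 792 B cells, which bounds its pooled level there and not the share of B cells expressing it. Its pooled level was at least 510-fold higher in members (floor of 3 counts over all B cells, counting error only). It was detected in 72.7% of loaded members, 3.70% of the other members and 2.57% of T cells, which averaged 11.9 CPM. The highest cell held 8.40% of its UMIs over all libraries, so no single cell carried the pooled level. In asthma replicate 8, the library with the highest level, a single cell held 45 of the 118 UMIs. In asthma replicate 10 a single cell held 27 of the 76. The rule removed cells with CD3D or CD3E, so low T cell genes in the members follow in part from it. Among the members, asthma replicate 11 held 27 of 34 UMIs of NKG7 and 27 of 29 of GNLY, both genes of cytotoxic cells, and their part in its CD160 level was not tested.

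Other genes of this ranking had no part in the lists. APOD, the lipocalin apolipoprotein D, had 840, 80.5 and 73.2 CPM in the controls and 238, 267 and 2.50 CPM in asthma, against a B cell mean of 2.32. It was detected in 44.2% of loaded members, and 195 of its 315 UMIs came from control replicate 1 against 1 from asthma replicate 11. PCSK1N, an inhibitor of prohormone convertase 1, averaged 120 CPM against 0.645 and was detected in 42.9% of loaded members and in none of the 27 others. CD59, the surface inhibitor of the complement membrane attack complex, averaged 150 CPM against 12.8. The 15 leading genes also held TNFRSF17, FKBP11, PDIA4, ITM2C, PRDX4, SDC1 and HSP90B1.

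**Figure D3:**
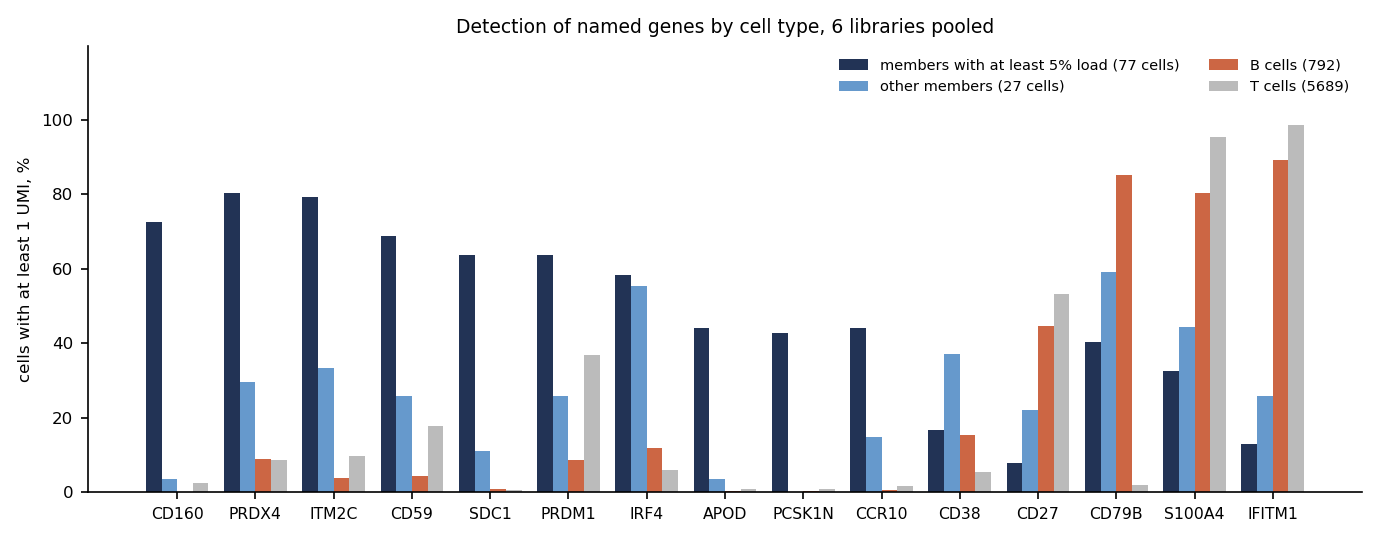
Share of cells with at least 1 UMI of 15 named genes, 6 libraries pooled, in members with at least 5% secretory load, other members, B cells and T cells. CD160 was detected in 72.7% of loaded members and no B cell, while CD38 was more frequent in the members without a load.

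Survival genes gave no common direction. Of 14 detected genes besides TNFRSF17 none was higher in all 6 libraries and 1, the apoptosis effector BAX, was lower (51.9 CPM against 163), with a median of 0.03. The share lower was 7.14%, against 12.2% of all genes. TNFRSF13B, the receptor TACI, which binds the same ligands as BCMA, averaged 145 CPM in members and 220 in B cells, and was detected in 54.8% of members. The B cell survival receptor TNFRSF13C (BAFF receptor) had 3 UMIs in all members. MCL1, the BCL2 family member that BCMA signals maintain, averaged 51.0 CPM against 95.7, BCL2 36.1 against 43.0, and BCL2L1 20.1 against 19.8. CD40 had 34.9 CPM against 110, FAS 23.9 against 78.6, BBC3 17.4 against 53.2, BCL2L11 24.2 against 33.6, BIK 26.3 against 26.8, IL6R 34.3 against 25.4 and IL6ST 18.4 against 14.1, none of them on the same side in all 6 libraries outside the load. CD28, a costimulatory receptor of T cells that plasma cells can also carry, was found in 9 members, all of them loaded, with 13 UMIs.

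Of 21 homing genes, CCR10 and ITGA4 were higher in all 6 libraries and 5 were lower. These are 9.52% and 23.8%, against 8.27% and 12.2% of all genes, so the share of higher genes was near that of all genes. CCR10, a receptor for the skin chemokine CCL27 and the mucosal chemokine CCL28, had 34.4, 20.1 and 84.5 CPM in control members and 111, 104 and 64.9 CPM in asthma members, against a B cell mean of 2.60. It was detected in 44.2% of loaded members and 0.758% of B cells. ITGA4, the integrin subunit alpha 4, averaged 118 CPM in members and 39.8 in B cells. The lymphoid homing genes fell on the other side, with GPR183 at 3.58 CPM against 115, CXCR5 at 6.29 against 63.0 and ITGB2 at 67.7 against 462. CXCR4, which retains plasma cells in bone marrow, averaged 39.5 CPM against 251. CCR7 and CXCR6 had no UMI in the members, CCR9 11, S1PR1 3, S1PR2 1, S1PR4 3, CCR2 3 and SELPLG 4. CCR6, CXCR3 and ITGAE averaged 12.9, 36.2 and 12.8 CPM in members and 23.2, 43.6 and 26.9 in B cells. ITGB7, which pairs with ITGA4 or ITGAE, averaged 51.6 against 112, ITGB1 averaged 112 against 132 and CD44 148 against 273.

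Genes of the B cell program were lower in the members. Of 24 listed genes 18 were lower in all 6 libraries and none higher outside the load (median -1.98), and 19 were lower over all UMIs. Among loaded members alone 19 were lower outside the load, with a median of -2.70. MS4A1, among the 18, chose the B cells together with a further B cell gene. Its level there is no finding, and part of these counts follows from that choice. In the members MS4A1 had 12.9, 26.8 and 344 CPM in the controls and 805, 0 and 0 CPM in asthma, from 8 members. CD22 averaged 4.64 CPM against 209, PAX5 6.46 against 48.8 and CD79B 120 against 758. MHC class II genes were lower but not absent, with HLA-DRA at 936 CPM ± 982 (SD, n = 6) against 8225, HLA-DPA1 at 242 against 2141, HLA-DPB1 at 174 against 1185 and CD74, the invariant chain, at 1631 ± 1068 against 8521. Both were highest in control replicate 3 and asthma replicate 8, where HLA-DRA reached 1741 and 2563 CPM against 172 to 496 elsewhere. Those libraries also held 6 of the 8 members with MS4A1 and 4 of the 5 with LILRA4, IRF8 and GZMB. Among loaded members alone, HLA-DRA stood at 245 and 207 CPM outside the load in these libraries, against 201 to 982 in the others.

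Other genes ranked among the furthest below B cells were S100A4 (109 CPM against 1976), IFITM1 (55.9 against 948), CST7, a protease inhibitor of cytotoxic granules (12.3 against 234), ZEB2 (13.4 against 253), MTSS1 (11.3 against 236) and RASGRP1 (6.13 against 187). S100A4, a calcium-binding protein, and IFITM1, an interferon-inducible membrane protein, were also far below their T cell means of 3672 and 1979 CPM. A single cell of asthma replicate 8 held 64 of the 137 S100A4 UMIs. IFITM1 was detected in 16.3% of members and 89.1% of B cells.

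Cycling genes were uneven between libraries. MKI67, a marker of cells in cycle, had 159, 0 and 462 CPM in the controls and 10.6, 196 and 0 CPM in asthma, and was detected in 15 members, 3 of them loaded. None of 13 cycling genes lay on the same side of B cells in all 6 libraries. The others ran from CDK1, BIRC5 and CCNB1 (7.66, 9.08 and 8.14 CPM) through UBE2C, MCM5 (26.8), TYMS (37.3), TOP2A (40.6), RRM2 (50.4) and PCNA (75.6) to STMN1, HMGB2 and TUBA1B (116, 149 and 331). Of 20 members with at least 4 cycling genes, 5 carried a load, with a median of 13.6%. The amino acid list had 4 of 11 genes higher in all 6 libraries, among them SLC1A4 (55.0 CPM against 8.64), SLC38A5 (99.4 against 14.8) and SLC7A5 (51.9 against 4.85), all of them amino acid transporters, and the serine synthesis enzyme PHGDH (28.6 against 11.3). SLC7A5 was highest in control replicate 3 (180 CPM, against 10.6 to 70.8 in the other libraries).

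The immediate early list had a median of -0.12 outside the load, against -0.14 for all genes, and of -0.75 over all UMIs, against -0.66. Of 21 genes 6 were lower in all 6 libraries on the former scale, among them NR4A1, NR4A2, EGR2 and CD69, and none was higher. FOS averaged 1249 CPM in members, 2275 in B cells and 3116 in T cells, and FOSB, DUSP1 and BTG2 457, 411 and 560 CPM in members against 587, 665 and 872 in B cells. Of 17 interferon-stimulated genes IFI6 was higher in all 6 libraries outside the load, and IFIT1, IFIT2 and MX2 were lower. These are 5.88% and 17.6%, against 8.27% and 12.2% of all genes. By CPM over all UMIs, 0 of the 17 were higher in all 6, and IFI6 averaged 131 CPM against 77.5. Of 12 cytokine genes TNF was lower in all 6 (8.33% of the list, against 12.2% of all genes), with no UMI in the members. IL10, a cytokine of regulatory plasma cells, had 2 UMIs. TGFB1 averaged 128 CPM against 281 and LTB 66.5 against 407.

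Markers of other cell types were read as whole lists. Of the macrophage and monocyte list 7 of 8 genes had UMIs, summing to 164, 463 and 186 CPM in the controls and 106, 114 and 35.0 CPM in asthma, led by LYZ, with C1QA at 0 by rule. The T and NK list summed to 21.5, 26.8 and 45.1 CPM and to 21.2, 21.8 and 167 CPM, and 2 of 3 granulocyte genes to 0 to 259 CPM. Mast cell markers MS4A2 and KIT were at 0, as was HBB. The plasmacytoid dendritic list, 6 of 6 genes, summed to 68.9, 195 and 2484 CPM in the controls and 3109, 785 and 250 CPM in asthma, led by GZMB. Epithelial genes, 10 of 10, summed to 14745 CPM in control replicate 1 and 18597 in asthma replicate 10, against 53.0 to 150 elsewhere, and a single cell in each held 3214 of the 3338 UMIs of SFTPC and 2565 of the 2578 of SCGB3A2. A cell of asthma replicate 10 also held 596 of the 647 UMIs of ITLN1, the leading mesothelial gene. Stromal and endothelial genes summed to 28.2 to 136 CPM, with CLDN5 at 0.

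The asthma and control groups were then compared, with the library as the replicate. Plasma cells made up 0.577%, 0.370% and 0.516% of cells in the controls and 0.256%, 0.297% and 0.444% in asthma. The groups overlapped, since asthma replicate 11 lay above control replicate 2, and the exact 95% binomial intervals of single libraries, which cover counting error only, spanned 0.377% to 0.844% in control replicate 1 and 0.128% to 0.457% in asthma replicate 8. The means were 0.488% ± 0.106 (SD, n = 3) in control and 0.332% ± 0.0992 (SD, n = 3) in asthma, a difference of -0.156 percentage points (two-sided exact permutation test, p = 0.2; Benjamini-Hochberg adjusted over 3 tests, 0.3; smallest possible p 0.1). A change in the share of plasma cells was not detectable with these libraries. Among loaded members alone the difference was -0.0889 percentage points (exact permutation p = 0.5). With cells without CD3D and CD3E as denominator it was -0.282 points, without overlap of the groups (exact permutation p = 0.1, the smallest possible).

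Set against the B lineage, the share was 13.2%, 8.23% and 10.1% in the controls and 7.75%, 9.93% and 38.0% in asthma (10.5% ± 2.51 and 18.6% ± 16.9, SD, n = 3 each; difference 8.05 points, exact permutation p = 0.9). Asthma replicate 11 decided the sign. It had 31 B cells against 127 to 187 in the other libraries, and without it the difference was -1.67 points. The members had median UMIs of 12668, 10491 and 21551 in asthma and 9029.5, 12399 and 6067 in control, and the groups overlapped (14903 ± 5859 and 9165 ± 3168, SD, n = 3 each; exact permutation p = 0.2, adjusted 0.3). Without asthma replicate 11 the difference of 5738 UMIs was 2414. Over UMIs outside the load, an alternative chosen after seeing the data, the groups did not overlap. Control medians were then 3967.5, 5243 and 5069 and asthma medians 10566, 5844 and 7005. The difference on that scale was 3045 UMIs (exact permutation p = 0.1, the smallest possible).

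**Figure D4:**
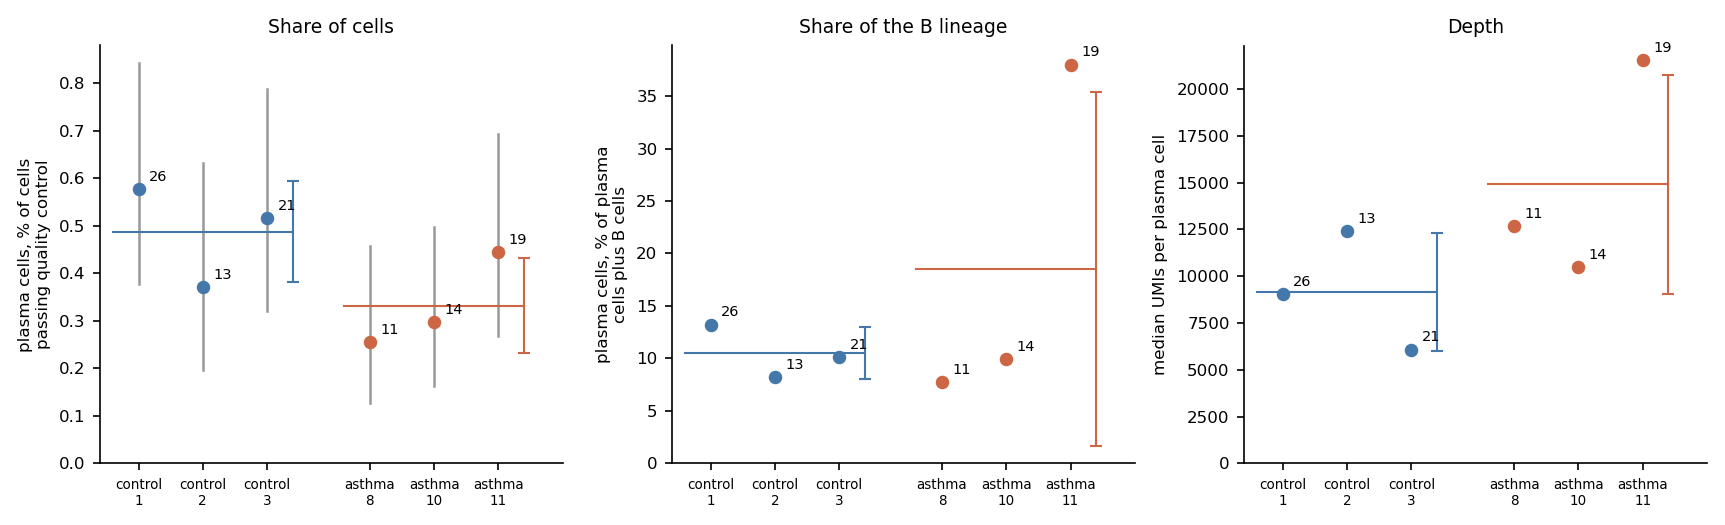
Plasma cells in percent of all cells passing quality control, in percent of plasma cells plus B cells, and their median UMIs, by library. Points are libraries labelled with their number of members, grey bars are exact 95% binomial intervals, horizontal lines are group means and capped bars their SD (n = 3). The groups overlap in each panel, and asthma replicate 11 lies apart in the middle panel at 38.0%.

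Gene expression was compared on UMIs summed over the members of each library with edgeR's quasi-likelihood test. Of 1445 genes tested, none was a DEG (adjusted p under 0.05 and absolute log2 fold change over 0.25), or 0% of those tested, and DESeq2 also called none. At an unadjusted p under 0.05 there were 9 genes higher in asthma (0.623%) and 21 lower (1.45%) with edgeR, and 21 in all with DESeq2. Every asthma library lay above every control library for 44 genes (3.04%) and below for 53 (3.67%). The median log2 fold change of all genes tested was -0.01. In simulated counts of this comparison, 1445 genes with 200 changed at each size, the test recovered 6% of log2 changes of 1, 67.5% of changes of 2 and 83.5% of changes of 3. Of the 200 changed genes 176, 155 and 169 were tested at these sizes and 12, 135 and 167 were recovered. False calls numbered 1, 9 and 8. Each simulated gene had the same spread between libraries (common dispersion 0.161) and, before the changes, the same mean share in all 6. The real genes differed in spread, and the real libraries differed in composition, with normalisation (TMM) factors from 0.561 to 1.74. Recovery in the real counts may therefore be lower, which was not tested. P-values measure the spread between 3 monkeys per group.

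The genes of the plasma cell program were tested in part, and none was called in any list. The 22 tested ER folding genes had a median log2 fold change of 0.19 and the 25 of translocation and glycosylation 0.31. The 12 of ER to Golgi transport had 0.35 and the 13 of the unfolded protein response -0.26. The ER folding genes here include TXNDC5, FKBP11 and MZB1, which chose the cells, so that median is a description only. The translocation list likewise holds a gene of the rule. PRDM1 differed by 0.09 ± 0.36 (log2, SE) and IGKC by 0.61 ± 1.44. JCHAIN (-0.05 ± 0.89), MZB1 (0.19 ± 0.48) and TNFRSF17 (-0.19 ± 0.42) chose the members, so their values are a description only. IGKC ranged from 21359 to 324889 TMM-normalised CPM among the controls alone. IRF4 was lower in each asthma library than in each control library (158 CPM ± 16.6 in control and 89.2 ± 40.6 in asthma, TMM-normalised, SD, n = 3 each), with a log2 fold change of -0.82 ± 0.40 (edgeR adjusted p = 0.9997). ITGA4 was likewise lower in each asthma library (-0.78 ± 0.36, edgeR adjusted p = 0.9997). Among loaded members alone the groups overlapped for both. IRF4 then had 236, 219 and 314 CPM outside the load in control and 184, 138 and 224 in asthma, and ITGA4 148, 320 and 314 against 184, 176 and 176.

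Among genes with groups that did not overlap, the smallest p-values on the higher side belonged to SELENOM, CCR10, NDUFA5, DDIT4 and DERL1, and none passed adjustment (edgeR adjusted p = 0.9997 for each). CCR10 had 41.2, 29.4 and 61.7 TMM-normalised CPM in control and 119, 96.5 and 125 in asthma, from 8, 3, 15, 21, 19 and 26 UMIs. TMM scales each library by its other genes, with factors from 0.561 in asthma replicate 11 to 1.74 in control replicate 3. By CPM over all UMIs the groups overlapped for CCR10 (84.5 in control replicate 3 and 64.9 in asthma replicate 11), NDUFA5 and DDIT4. The log2 fold change of CCR10 was 1.28 ± 0.40 (SE), 1.41 among loaded members alone and 0.81 with 1 UMI of the excluding genes allowed. SELENOM, an ER selenoprotein, had 82.3, 49.1 and 69.9 CPM in control and 181, 112 and 245 in asthma (log2 fold change 1.38 ± 0.42). DERL1, a component of ER-associated degradation, had a mean of 41.6 CPM ± 17.1 in control and 87.9 ± 29.5 in asthma. NDUFA5 of respiratory complex I had 26.6 ± 20.4 and 93.8 ± 30.2, and the stress-induced DDIT4 47.6 ± 10.9 and 99.4 ± 14.8 (SD, n = 3 each). Single cells held a large part of some of these counts. In asthma replicate 8 a single cell held 15 of 32 SELENOM UMIs, and a single cell held 6 of 11 of DERL1. Likewise a single cell held 12 of 25 NDUFA5 UMIs in asthma replicate 10. In asthma replicate 11 a single cell held 10 of 26 CCR10 UMIs, and a single cell held 10 of 24 of DDIT4.

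On the lower side stood ND4L, SMARCA5, PLEC, COX1 and 7SK. The mitochondrially encoded ND4L had 510, 697 and 662 TMM-normalised CPM in control and 283, 305 and 284 in asthma (log2 fold change -1.10 ± 0.30, SE), and COX1, likewise mitochondrial, 1410, 2482 and 2431 against 1127, 1072 and 948 (-1.01 ± 0.32), but its log2 fold change among loaded members alone was -0.54. Both genes are among the 13 mitochondrial genes whose share the member rule limits to 25%, so their values are a description only. The median mitochondrial share of the members was 2.48%, 4.47% and 7.55% in control and 2.82%, 4.01% and 1.37% in asthma, and its part in these differences was not tested. SMARCA5, a chromatin remodeller, differed by -1.24 ± 0.38 and the cytoskeletal linker PLEC by -1.13 ± 0.36. PLEC was -0.35 with the TNFRSF17 requirement dropped and at least 4 of 5 secretory genes needed. 7SK, a small nuclear RNA that restrains transcription elongation, differed by -1.39 ± 0.45, but by 0.54 among loaded members alone. A single cell held 96 of its 218 UMIs in control replicate 3, and another held 19 of its 34 in control replicate 2. In the loaded members, by CPM outside the load, the groups overlapped for SELENOM, DDIT4, COX1 and 7SK. ISG15, an interferon-stimulated gene, was also below the controls in each asthma library (122 CPM ± 32.7 and 39.6 ± 40.7, SD, n = 3 each; log2 fold change -1.58 ± 0.60).

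Markers of other cell types in the members were also compared between the groups, and none was called. LYZ, the lysozyme gene of macrophages and monocytes and the only tested gene of that list, had 113, 491 and 78.2 TMM-normalised CPM in control and 73.6, 66.0 and 48.1 in asthma, without overlap (log2 fold change -1.78 ± 0.66, edgeR adjusted p = 0.9997). A single cell of control replicate 2 held 42 of its 127 UMIs, and among loaded members alone LYZ stood at 108, 774 and 105 CPM outside the load in control and 92.2, 75.4 and 79.9 in asthma. SFTPC, the only tested epithelial gene, differed by -5.69 ± 1.95 with overlapping groups, and 3214 of its 3338 UMIs lay in a single cell of control replicate 1. The part of these markers in the other differences was not tested.

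**Figure D5:**
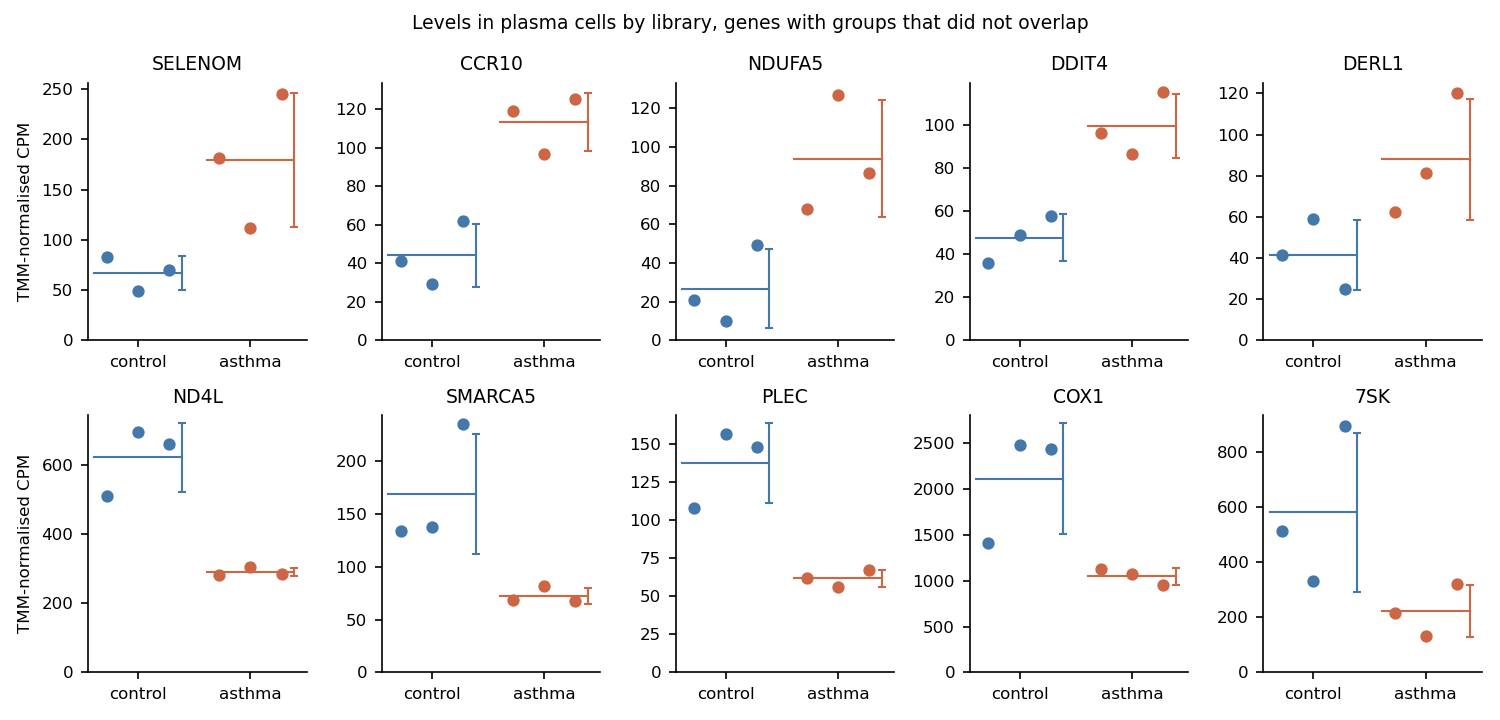
TMM-normalised CPM in the members of each library for the 5 genes higher and the 5 lower in asthma with the smallest p-values among genes whose groups did not overlap. Points are libraries, lines are group means and capped bars their SD (n = 3). The groups separate in each panel over all members by the way the genes were chosen, none passed adjustment, and CCR10, NDUFA5 and DDIT4 overlap by CPM without TMM.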

How the data were processed

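Single cells from lungs of 6 monkeys were analysed, 3 per group. The authors aligned reads to macFas6 with Cell Ranger, and the deposited matrices hold raw UMI counts. The file headers name version 4.0.0 and the submitters' processing notes 2.1.1. Members were found by the rule in the report. The members and gene lists were chosen with earlier results of these data known. Counts were summed per library and tested with edgeR 4.0.16 (R 4.3.3; TMM, filterByExpr, quasi-likelihood, Benjamini-Hochberg) and DESeq2 1.42.0. Shares were compared by exact permutation over 20 assignments. Named genes were the genes of the rule, members of the fixed lists, up to 10 DEGs per direction (with fewer than 5, up to 5 genes without overlap and with the smallest p) and the 15 and 10 genes furthest above and below B cells. A few other list members (such as EDEM1, ERO1A, SEC61A1, MCFD2, ISG15) and CD160's comparison genes were named after their values were seen. The edgeR test was tried on simulated counts. Scrublet (scanpy 1.11.5) marked 0 to 3 cells per library by its own threshold, under 0.5%, so doublets were left in, and an alternative removed the highest scores (0.8% per 1000 cells). Python 3.11.15 was used. The 7528 genes without a symbol were kept by identifier. Heavy chain classes and the kappa share, planned, were dropped because no heavy chain or lambda constant gene carried a symbol. Sequences were not used here. Some genes that the naming rule takes in are not reported here.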

Additional observations from a re-analysis of the deposited data

How the results depend on the processing

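No paired analysis was possible because the replicate numbers of the groups do not overlap and each monkey gave 1 library. The lower mean share of plasma cells in asthma kept its sign under all 15 alternatives, from -0.282 points with cells without CD3D and CD3E as denominator (exact permutation p = 0.1, the smallest possible) to -0.0889 among loaded members, and from -0.214 to -0.111 with a library left out. The share of the B lineage reversed in 1 of 14 alternatives, to -1.67 points without asthma replicate 11, and ranged up to 13.5 with another library left out. Against B cells, the counts of genes higher in each library moved by less than 1.5 times in the 4 secretory lists among loaded members and without control replicate 3 or asthma replicate 11, while the genes of the unfolded protein response lower in all 6 libraries went from 2 to 0 among loaded members. The difference in median UMIs stayed positive in all 11, from 2414 to 7944 with a library left out, and 3045 over UMIs outside the load (exact permutation p = 0.1).

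The number of DEGs was 0 in 14 of 17 alternatives. Without a filter on low counts it was 76, of which 43 had at least 90% of their UMIs in a single library and 37 had no symbol or an immunoglobulin symbol. With the TNFRSF17 requirement dropped and the secretory minimum raised to 4 of 5 genes together it was 5 (MGP, PTGDS, PLAC9, IGFBP7 and SERPINF1, all higher in asthma, known from stromal cells), and without control replicate 3 it was 2 (IGLV3-10 and a gene without a symbol, both lower in asthma), so the range with a library left out was 0 to 2. The log2 fold change of 7SK reversed to 0.54 among loaded members. The other 9 named genes kept their sign in every alternative that tested them, and 5 of them moved by over 1.5 times in an alternative. PLEC was -0.35 and DDIT4 0.44 under that same pair of changes, COX1 was -0.54 among loaded members, NDUFA5 2.46 without control replicate 3, and CCR10 0.81 with 1 UMI of the excluding genes allowed (range 0.81 to 1.63, lowest adjusted p 0.279). PLEC, DDIT4, DERL1 and NDUFA5 were not among the genes tested in loaded members. Alternatives on members with a load, on members with markers of other cell types, on 1 UMI of the excluding genes and on genes without a symbol were chosen after seeing the data. Heavy chain class and kappa share could not be computed and have no alternatives. The number of members, 11 to 26 per library, limits all of these values, since 1 cell is 3.85% to 9.09% of a library's members.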
